A study of Mus musculus with 12 samples.

Results

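The DNA replication and S phase genes described here were 49 mouse genes that encode the machinery of DNA duplication, listed by their known roles in 8 groups: the MCM2-7 helicase, origin licensing and firing, the clamp and its loader, polymerases and primase, single-stranded DNA and Okazaki fragment factors, nucleotide supply, chromatin assembly, and fork checkpoint and repair. They were matched by gene symbol to an Affymetrix Mouse Gene 2.0 ST array, and a gene read by more than 1 row was represented by its brightest row on average. Of the 49, 48 were measured by a row of their own, among 22180 genes tested. Rfc4, a clamp loader subunit, was read only on a row shared with Eif4a2 and was not analysed here. The RNA came from splenic CD4+ T cells of 8-week-old C57BL/6-Foxp3.GFP mice, a reporter strain in which green fluorescence marks cells that express Foxp3, and each array held cells sorted as Foxp3+ regulatory T cells (Treg) or Foxp3- effector T cells (Teff). For 2 of the groups of each type the unsorted CD4+ cells, with Treg and Teff cells together, had been cultured for 3 days before the sort, either with monoclonal antibodies to CD3 and CD28 (anti-CD3-CD28, 2 µg/ml each) or with the soluble ligands OX40L (5 µg/ml) and JAG1 (1 µg/ml), given together as OX40L-JAG1. The control group of each cell type was fresh and untreated. That made 6 groups of 2 arrays: anti-CD3-CD28 Treg, OX40L-JAG1 Treg and control Treg cells, and the same 3 of Teff cells. The series set engagement of the T cell receptor beside a route that bypasses it as ways of expanding Treg cells.

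Before a cell divides it duplicates its genome in S phase. In G1, origin recognition complexes, Cdc6 and Cdt1 load the ring-shaped MCM2-7 helicase onto origins; in S phase Cdc45 and the GINS complex join it, polymerase alpha with primase lays down primers, and polymerases delta and epsilon extend them on the PCNA clamp. Resting T cells hold many of these genes at low levels, and transcription factors of the E2F family switch them on together once a receptor signal takes the cell past the G1 restriction point.

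All values are log2 intensities, and a log2 difference of 1 is a doubling. The arrays' medians over all genes were 4.87 or more, and a value below 4.87 was not shown to be above background. Foxp3 read 11.22 and 11.02 in anti-CD3-CD28 Treg cells, 10.64 and 10.92 in OX40L-JAG1 Treg cells and 10.37 and 10.36 in control Treg cells, against 5.58 and 5.72, 6.81 and 6.35 and 5.66 and 5.66 in the corresponding Teff groups, so the sort was visible on every array. Both arrays of OX40L-JAG1 Teff cells differed from the other 10. Their values over all genes spread less (SD 1.71 and 1.49, against 1.95 to 2.19), and their replicate correlation was 0.881, against 0.984 to 0.994 in the other groups. Markers of other cells also moved in that group: the summed linear intensity of 6 T cell markers was 3628 to 6230 in OX40L-JAG1 Teff cells and 14681 to 15631 in control Teff cells, that of 8 myeloid markers was 3302 to 7466 against 469 to 479, and that of 6 basophil and mast cell markers was 1360 to 3015 against 214 to 228. In OX40L-JAG1 Treg cells the T cell sum was 11496 to 11780, against 11419 to 12934 in control Treg cells, with myeloid markers at 1763 to 2080 against 257 to 351 and basophil markers at 663 to 816 against 93 to 107. The part of these shifts in the results below was not tested, and in bulk samples fewer cells of a type and less RNA per cell cannot be told apart. The labels do not say whether the 2 arrays of a group came from separate mice or cultures, so p-values cover the spread between the samples alone, possibly a technical one, and 2 arrays a group limit the precision. Because control cells were not cultured, culture and stimulus cannot be told apart.

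The promoters of the set are shown first because E2F motifs are their known shared feature. RefSeq promoters (build GRCm38.p6, 250 bases before to 50 bases after the start of transcription) were at hand for 42 of the 49 genes, all but Mcm4, Gins1, Gins2, Gins4, Rfc2, Prim2 and Pole. Both strands were searched for the octamers TTTCCCGC, TTTCGCGC, TTTGCCGC and TTTGGCGC, and overlapping matches were each kept. At least 1 of them was found in 16 of the 42 (38.1%), against 704 of all 27025 genes with such a promoter (2.6%). The 16 were Brca2, Cdc6, Cdt1, Clspn, Dtl, Gins3, Lig1, Mcm3, Mcm5, Mcm6, Mcm7, Orc1, Pola1, Pold1, Pole2 and Rfc3. The CCAAT box, read as ATTGG on the other strand, was in 26 of the 42 (61.9%), against 41.1% of all genes. A match is only a run of letters and not a shown binding site. The stretches below run from 150 bases before to 30 bases after the start, 5′ to 3′ on the gene's strand, for the 4 genes with a motif and the largest change in anti-CD3-CD28 Treg cells, with the motif in capitals.
Cdc6 (chr11:98908001-98908180, plus strand): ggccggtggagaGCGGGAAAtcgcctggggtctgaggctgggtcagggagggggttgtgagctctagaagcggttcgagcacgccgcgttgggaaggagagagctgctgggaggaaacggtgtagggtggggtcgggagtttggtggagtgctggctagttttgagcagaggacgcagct
Pole2 (chr12:69228161-69228340, minus strand): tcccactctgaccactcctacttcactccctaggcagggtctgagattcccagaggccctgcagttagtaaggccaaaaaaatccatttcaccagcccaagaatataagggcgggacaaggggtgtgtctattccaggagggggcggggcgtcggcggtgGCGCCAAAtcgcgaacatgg
Dtl (chr1:191575515-191575694, minus strand): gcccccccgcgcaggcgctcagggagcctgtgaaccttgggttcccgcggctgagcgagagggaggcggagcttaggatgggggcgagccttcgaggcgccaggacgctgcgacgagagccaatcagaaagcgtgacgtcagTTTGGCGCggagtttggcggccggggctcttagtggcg
Clspn (chr4:126556830-126557009, plus strand): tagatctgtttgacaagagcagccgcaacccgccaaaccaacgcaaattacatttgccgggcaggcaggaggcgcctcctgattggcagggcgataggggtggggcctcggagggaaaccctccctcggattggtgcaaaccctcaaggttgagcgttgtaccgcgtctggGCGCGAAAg
The motif of Dtl, TTTGGCGC, began 8 bases before the start and lay on the gene's own strand. Those of Cdc6 (TTTCCCGC), Pole2 (TTTGGCGC) and Clspn (TTTCGCGC) lay on the opposite strand, beginning 138 bases before, 10 bases after and 21 bases after the start.

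Most of the replication set was higher in anti-CD3-CD28 Treg cells than in fresh Treg cells. Against control Treg cells, 40 of the 48 genes rose and 0 fell (limma moderated test, Benjamini-Hochberg adjustment over all genes, adjusted p under 0.05), where 8.08% of all 22180 genes rose, and no gene of the set was lower at an unadjusted p under 0.05. The median change of the 48 was 1.29 on the log2 scale, a 2.45-fold rise, and that of all genes was -0.05. Every role group had members that rose: 5 of 6 helicase subunits, 10 of 11 origin factors, 3 of 5 clamp and loader subunits, all 8 polymerase and primase subunits, 2 of 5 single-stranded DNA and Okazaki fragment factors, 4 of 5 nucleotide supply enzymes, both chromatin assembly subunits and all 6 checkpoint and repair genes. Gins4 and Rpa1 had positive changes that did not pass the test and changed sign after quantile normalization. After quantile normalization of the 22180 genes, which forces all arrays to 1 distribution, 21 of the 48 rose and 0 fell, with a median of 0.95 and no clamp or loader subunit among the 21. The 21 held 2 of 6 helicase subunits and 2 of 8 polymerase and primase subunits. Both chromatin assembly subunits and all 6 checkpoint and repair genes stayed among them. Leaving out 1 array left its group with a lone array, taken to vary like the others: the count was 22 without anti-CD3-CD28 Treg replicate 1, 25 without anti-CD3-CD28 Treg replicate B and 26 without control Treg replicate B.

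**Figure D1:**
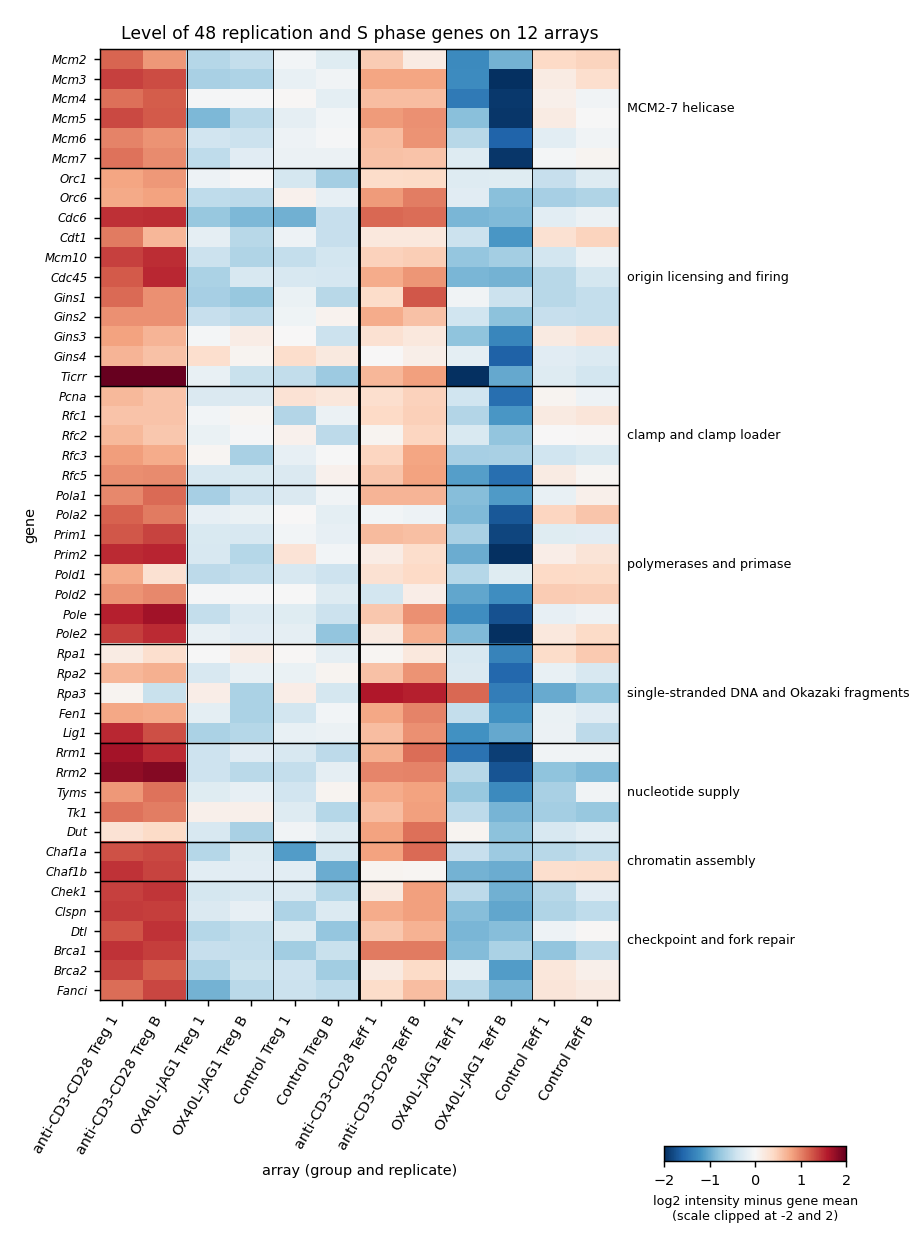
Log2 intensity of the 48 replication and S phase genes (rows, grouped by role) on the 12 arrays (columns), each gene shown as the difference from its own mean over the arrays; red is above and blue below that mean, and colours are clipped at -2 and 2. The anti-CD3-CD28 Treg columns are the reddest for most genes and the OX40L-JAG1 Teff columns the bluest.

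Among the helicase subunits, Mcm3 read 8.78 and 8.72 in anti-CD3-CD28 Treg cells, against 7.26 and 7.35 in control Treg cells. Mcm5 read 9.18 and 9.09 against 7.69 and 7.80, and Mcm6 9.87 and 9.77 against 8.77 and 8.86, in the same order. In each case both stimulated arrays lay above both fresh ones, as they did for 6689 of all 22180 genes, while 7105 lay below. The changes, given throughout as the log2 difference ± SE of the fit, were 1.44 ± 0.23 (adjusted p = 0.002) for Mcm3, 1.39 ± 0.30 (adjusted p = 0.0122) for Mcm5 and 1.01 ± 0.28 (adjusted p = 0.0467) for Mcm6. Mcm4 read 9.49 and 9.59 in anti-CD3-CD28 Treg cells, against 8.41 and 8.19 in control Treg cells and rose by 1.24 ± 0.21, and Mcm2 rose by 1.17 ± 0.21. Mcm7 changed by 1.13 ± 0.40 (adjusted p = 0.114) and did not pass.

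Origin licensing and firing held the largest change of the set. Ticrr (Treslin), a firing factor needed to bring Cdc45 to the helicase, read 7.84 and 7.87 in anti-CD3-CD28 Treg cells, against 5.19 and 4.97 in control Treg cells. Cdc6, the ATPase that helps load the helicase and whose promoter is printed above, read 7.72 and 7.74 against 5.30 and 5.81. Gins4, a subunit of the GINS complex, read 8.66 and 8.56 against 8.33 and 8.18. Ticrr and Cdc6 were far above their fresh levels on both arrays, while Gins4 differed little. Ticrr rose by 2.77 ± 0.34 (adjusted p = 0.000274) and Cdc6 by 2.17 ± 0.20 (adjusted p = 3.77e-05), while Gins4 changed by 0.35 ± 0.35 (adjusted p = 0.636). Of the other firing factors, Mcm10, which helps activate the helicase, rose by 1.85 ± 0.18 and Cdc45, part of the active helicase, by 1.69 ± 0.19. The other GINS subunits rose by 1.37 ± 0.28 (Gins1), 0.92 ± 0.19 (Gins2) and 0.96 ± 0.22 (Gins3). Gins3 read 7.60 and 7.48 in anti-CD3-CD28 Treg cells, against 6.80 and 6.36 in control Treg cells. Of the origin recognition complex genes Orc6 rose by 0.82 ± 0.22. Orc1 read 5.87 and 5.94 in anti-CD3-CD28 Treg cells, against 4.72 and 4.40 in control Treg cells, and passed in the upward direction, but both control arrays were below 4.87 and the size of its rise is therefore not given. One control array of Gins1 was below that level too (5.02 and 4.59). The licensing factor Cdt1 rose by 1.13 ± 0.27.

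Clamp and loader genes had a group median of 0.88. Pcna, the sliding clamp that tethers polymerases, read 10.73 and 10.65 in anti-CD3-CD28 Treg cells, against 10.36 and 10.30 in control Treg cells. Its stimulated arrays were the higher ones by a small margin, and the change of 0.36 ± 0.29 (adjusted p = 0.543) did not pass. The loader subunit Rfc5 read 7.66 and 7.68 against 6.45 and 6.81 and rose by 1.04 ± 0.21 (adjusted p = 0.00784). Rfc1, the large subunit, read 7.89 and 7.89 against 6.74 and 7.21 and rose by 0.92 ± 0.23 (adjusted p = 0.0255). Rfc3 rose by 0.88 ± 0.23, and Rfc2 changed by 0.82 ± 0.25 (adjusted p = 0.0616). Rfc2 passed as higher once the OX40L-JAG1 Teff arrays were left out (limma adjusted p = 0.0131).

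All 8 polymerase and primase subunits rose, with a group median of 1.31. After quantile normalization 2 of the 8 passed, Pola1 and Pole. Pole, the catalytic subunit of the leading strand polymerase epsilon, read 7.75 and 7.88 in anti-CD3-CD28 Treg cells, against 5.96 and 5.77 in control Treg cells. Its partner Pole2 read 8.20 and 8.30 against 6.64 and 6.03. Both genes stood well above both fresh arrays, and rose by 1.95 ± 0.22 (adjusted p = 0.000174) and 1.91 ± 0.36 (adjusted p = 0.00557). Pold1, the catalytic subunit of polymerase delta, read 7.69 and 7.26 against 6.63 and 6.53 and had the smallest rise of the group, 0.89 ± 0.20 (adjusted p = 0.0156). Its accessory subunit Pold2 read 7.61 and 7.67 against 6.71 and 6.46, and Pola2, the accessory subunit of polymerase alpha, 8.64 and 8.5 against 7.47 and 7.26. None of these pairs of arrays overlapped, and the rises were 1.05 ± 0.21 and 1.21 ± 0.24. The polymerase alpha catalytic subunit Pola1 rose by 1.23 ± 0.20, the catalytic primase subunit Prim1 by 1.4 ± 0.30 and its partner Prim2 by 1.4 ± 0.33.

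The enzymes that join Okazaki fragments rose, and the subunits of the trimer that coats single-stranded DNA did not pass. Lig1, the ligase that seals the fragments, read 8.42 and 8.20 in anti-CD3-CD28 Treg cells, against 6.75 and 6.79 in control Treg cells. Fen1, the nuclease that trims their flaps, read 6.68 and 6.64 against 5.53 and 5.84. Rpa3, the smallest subunit of replication protein A, read 8.38 and 7.89 against 8.47 and 7.98. Lig1 and Fen1 did not overlap their fresh levels, whereas the Rpa3 arrays of the groups interleaved. Lig1 rose by 1.54 ± 0.20 (adjusted p = 0.000519) and Fen1 by 0.98 ± 0.26 (adjusted p = 0.0336), while Rpa3 changed by -0.09 ± 0.60 (adjusted p = 0.956), Rpa1 by 0.33 ± 0.28 (adjusted p = 0.579) and Rpa2 by 0.73 ± 0.33 (adjusted p = 0.224). Omitting the OX40L-JAG1 Teff arrays, which enter only the estimate of the spread here, Rpa2 passed as higher (limma adjusted p = 0.00771). No test compared the trimer with the enzymes.

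Nucleotide supply rose with Rrm1 and Rrm2 in front. Rrm2, the small subunit of ribonucleotide reductase, which makes deoxynucleotides, read 8.63 and 8.69 in anti-CD3-CD28 Treg cells, against 6.39 and 6.68 in control Treg cells. Its large subunit Rrm1 read 10.16 and 9.99 against 8.18 and 7.98, and Dut, which removes dUTP from the pool, 7.76 and 7.85 against 7.41 and 7.22. Rrm1 and Rrm2 stood far above the fresh arrays, and Dut only slightly. Rrm2 rose by 2.12 ± 0.31 (adjusted p = 0.000911), Rrm1 by 2.00 ± 0.21 (adjusted p = 0.000113), and Dut changed by 0.49 ± 0.27 (adjusted p = 0.327). Thymidine kinase Tk1 rose by 1.47 ± 0.20 and thymidylate synthase Tyms by 1.14 ± 0.25.

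The chromatin assembly factor, which places histones behind the fork, rose in both measured subunits. Chaf1a read 6.93 and 6.99 in anti-CD3-CD28 Treg cells, against 4.55 and 5.31 in control Treg cells, and Chaf1b 8.33 and 8.24 against 6.68 and 5.90. The control arrays of each gene lay well apart from each other and still below both stimulated ones, and the lower Chaf1a control was not shown to be above background. The rises were 2.03 ± 0.25 (adjusted p = 0.000348) and 2.00 ± 0.23 (adjusted p = 0.000206). Among checkpoint and repair genes, Brca1, which acts in homologous recombination, read 7.41 and 7.35 against 5.28 and 5.53. Dtl, which directs the destruction of Cdt1 in S phase, read 7.97 and 8.15 against 6.45 and 5.93, and Fanci, a partner of Fancd2 in crosslink repair, 6.78 and 7.01 against 5.24 and 5.16. Again no arrays overlapped, and the rises were 1.98 ± 0.19 (adjusted p = 4.76e-05), 1.87 ± 0.21 (adjusted p = 0.000142) and 1.69 ± 0.21 (adjusted p = 0.000367). Brca2, which acts in the same repair pathway as Brca1, read 6.82 and 6.67 against 5.05 and 4.77 and rose by 1.83 ± 0.27. Its lower control array was below 4.87, so this size is not exact. The checkpoint kinase Chek1 rose by 1.82 ± 0.25 and its mediator Clspn (claspin) by 1.84 ± 0.19.

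Further genes of these pathways rose too. Of 43 measured further replication genes 15 rose in anti-CD3-CD28 Treg cells, with a median of 0.61, among them the histone chaperone Asf1b (2.05 ± 0.22), the nuclease and helicase Dna2 (1.72 ± 0.19), the clamp unloader Atad5 (1.70 ± 0.19), Uhrf1 (1.62 ± 0.21), which recruits maintenance DNA methylation, and the fork protein Wdhd1 (1.5 ± 0.24). Of 20 further checkpoint and repair genes 13 rose, with a median of 1.23, among them the recombination gene Rad54l (2.65 ± 0.25), Fancd2 (2.28 ± 0.31), the helicase Blm (2.14 ± 0.26) and the nuclease Exo1 (1.92 ± 0.21). Of 13 E2F and pocket protein genes 7 rose, among them E2f8 (2.73 ± 0.22), E2f3 (1.81 ± 0.40), E2f7 (1.25 ± 0.20) and the pocket protein Rbl1 (1.29 ± 0.23), while E2f2 changed by 1.10 ± 0.34 (adjusted p = 0.0661). None of these 3 lists held a gene that fell. All 9 measured mitosis markers rose, with a median of 2.64, including Bub1 (3.51 ± 0.31), Kif11 (2.79 ± 0.28), Plk1 (2.76 ± 0.19), Cenpe (2.76 ± 0.20), Aurkb (2.64 ± 0.18) and Mki67 (2.30 ± 0.39). Of the markers of other cells, 1 of 7 B cell markers fell and 1 of 3 erythroid and platelet markers rose, while T cell, myeloid, basophil and mast cell, and CD8 and NK cell markers held 0 calls (limma; 1 higher and 2 lower by the unadjusted p). The summed intensities were 181 to 184 in anti-CD3-CD28 Treg cells and 63 to 73 in control Treg cells for erythroid and platelet markers, 449 to 501 against 257 to 351 for myeloid markers and 199 to 201 against 260 to 322 for B cell markers, and their part in the result was not tested. Of the genes of the set with an E2F motif in the promoter 15 of 16 rose (median 1.36), and of the measured genes with a promoter and no motif 20 of 25 (median 1.21), a difference that was not tested.

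In Teff cells, genes of 7 of the 8 roles were higher after anti-CD3-CD28 than in fresh cells. The exception, the helicase, depended on the fit: 2 of 6 subunits passed after quantile normalization. Without the OX40L-JAG1 Teff arrays Mcm3, Mcm4, Mcm5, Mcm6 and Mcm7 all passed as higher. Against control Teff cells, 22 of the 48 rose and 0 fell (limma; at an unadjusted p under 0.05, 31 were higher and 2 lower), where 5.44% of all genes rose; the median change was 0.77, a 1.71-fold rise, and that of all genes 0.07. All 5 nucleotide supply enzymes and 7 of 11 origin factors rose. Of the 6 helicase subunits 0 passed (limma, with 4 higher at an unadjusted p under 0.05), and 2 of 8 polymerase and primase subunits, 1 of 5 clamp and loader subunits, 3 of 5 single-stranded DNA and Okazaki fragment factors, 1 of 2 chromatin assembly subunits and 3 of 6 checkpoint and repair genes rose. After quantile normalization 24 of the 48 rose and 0 fell in Teff cells, where 21 rose in Treg cells. Mcm2, Cdt1 and Pold1 had negative changes close to 0 that changed sign after quantile normalization. The count rested on single arrays: it was 11 without anti-CD3-CD28 Teff replicate B, 10 without either control Teff array, and 35 (33 higher, 2 lower) without the OX40L-JAG1 Teff arrays, where leaving out 1 of them leaves that group with no spread of its own. The 2 lower calls in that fit were Pola2 and Pold2. Of the 22 genes, 20 had also risen in Treg cells (90.9% of the Teff list), and the other 2 were Rpa3 and Dut. Because 40 of the 48 genes rose in Treg cells, most of any list from the set would overlap to that extent. Across the 48 genes the changes in the 2 cell types correlated at Pearson r = 0.122 and Spearman rho = 0.219.

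**Figure D2:**
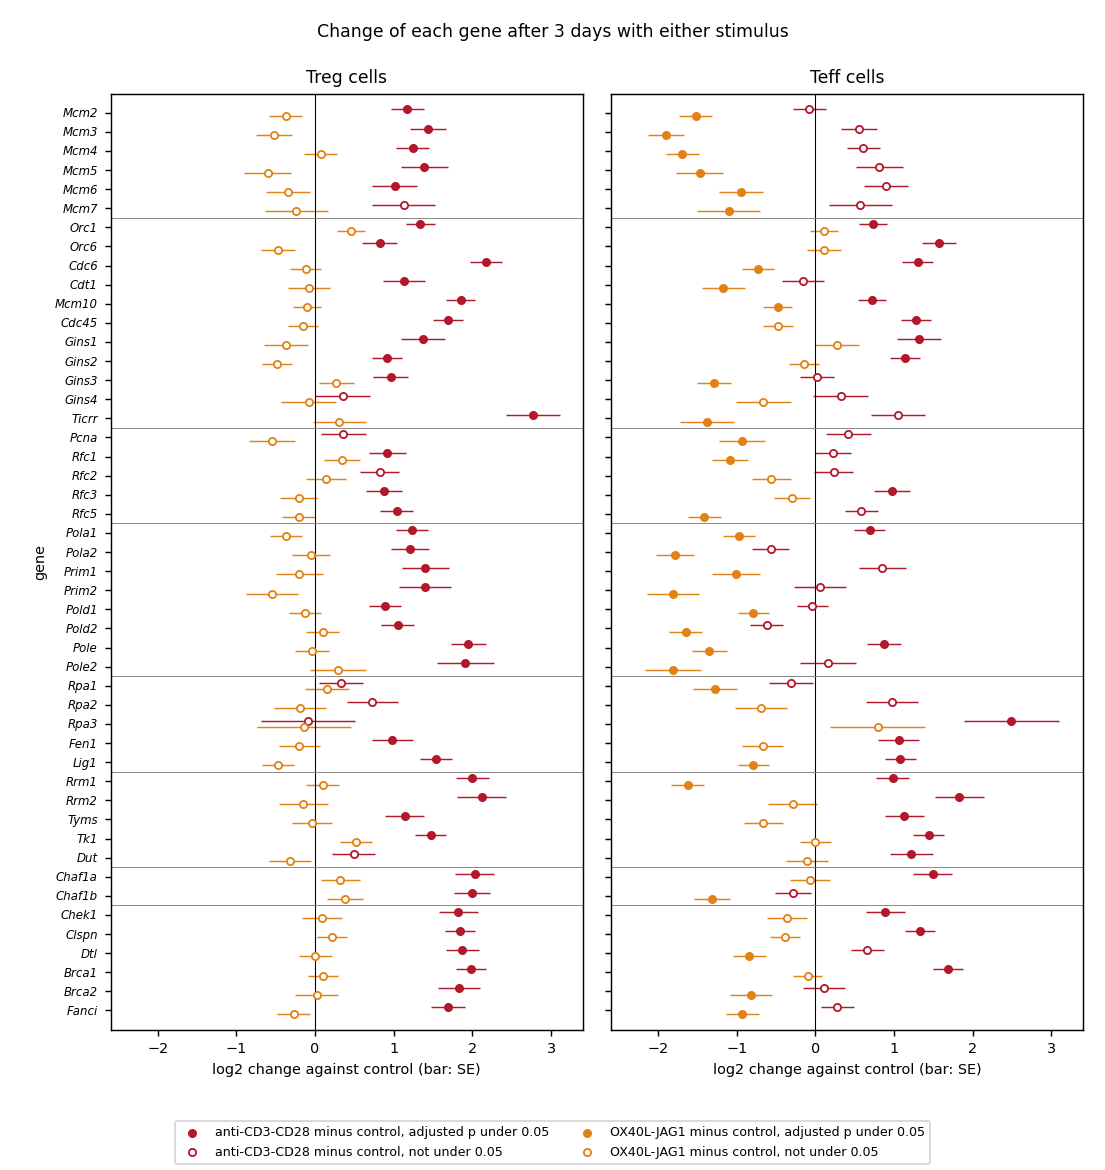
Log2 change ± SE against the fresh control for each of the 48 genes in Treg cells (left) and Teff cells (right), with 2 arrays a group; red marks anti-CD3-CD28, orange OX40L-JAG1, and filled points have an adjusted p under 0.05. In Treg cells 40 red points are filled and 0 orange ones, and in Teff cells 22 red points are filled to the right of 0 and 29 orange points to its left, of which Mcm6 and Pold1 change sign after quantile normalization.

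Of the helicase subunits, Mcm3 read 8.21 and 8.21 in anti-CD3-CD28 Teff cells, against 7.58 and 7.75 in control Teff cells. Mcm4 read 9.0 and 9.01 against 8.49 and 8.31, and Mcm5 8.71 and 8.78 against 8.02 and 7.86. Stimulated arrays were higher by a small margin and did not overlap the fresh ones, which with 2 arrays a group is common: of all 22180 genes 7632 lay above and 6478 below both fresh arrays in this comparison. The changes were 0.55 ± 0.23 (adjusted p = 0.156), 0.61 ± 0.21 (adjusted p = 0.0755) and 0.81 ± 0.30 (adjusted p = 0.101). Mcm6 read 9.49 and 9.77 against 8.66 and 8.80 and changed by 0.90 ± 0.28 (adjusted p = 0.0568). Mcm7 changed by 0.57 ± 0.40 and Mcm2 by -0.08 ± 0.21.

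At origins, Cdc6 read 7.42 and 7.38 in anti-CD3-CD28 Teff cells, against 6.06 and 6.15 in control Teff cells, and rose by 1.30 ± 0.20 (adjusted p = 0.00123). Ticrr read 6.36 and 6.51 against 5.43 and 5.33. Its arrays did not overlap, but the change of 1.05 ± 0.34 (adjusted p = 0.0591) did not pass. Gins3 read 7.10 and 7.0 against 6.98 and 7.07 and Gins4 7.99 and 8.10 against 7.75 and 7.70, with changes of 0.02 and 0.32 that did not pass. Orc6 rose by 1.57 ± 0.22 (adjusted p = 0.000701), Gins2 by 1.14 ± 0.19, Cdc45 by 1.28 ± 0.19 and Mcm10 by 0.72 ± 0.18. Orc1 (5.44 and 5.46 in anti-CD3-CD28 Teff cells, against 4.61 and 4.82 in control Teff cells) and Gins1 (5.52 and 6.39 against 4.59 and 4.67) passed in the same direction, but their control arrays were all below 4.87 and no size is given. Cdt1 changed by -0.16 ± 0.27. In the clamp group Pcna read 10.41 and 10.54 against 10.13 and 9.98, Rfc5 7.28 and 7.54 against 6.90 and 6.77 and Rfc1 7.72 and 7.80 against 7.50 and 7.57. All 3 were slightly higher after stimulation and none passed, at 0.42, 0.58 and 0.22. Rfc3 rose by 0.97 ± 0.23 (adjusted p = 0.0166), and Rfc2 changed by 0.23 ± 0.25.

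Polymerase genes split in Teff cells. Pole read 6.74 and 7.11 in anti-CD3-CD28 Teff cells, against 6.03 and 6.09 in control Teff cells, and rose by 0.87 ± 0.22 (adjusted p = 0.0215). Pole2 read 6.99 and 7.54 against 7.03 and 7.19 and Pold1 7.25 and 7.35 against 7.35 and 7.33. The arrays of both genes overlapped between the groups, and the changes were 0.16 ± 0.36 and -0.04 ± 0.20. Pola2 read 7.41 and 7.35 against 7.89 and 8.02 and Pold2 6.34 and 6.84 against 7.22 and 7.21. Both accessory subunits were lower on both stimulated arrays, with changes of -0.57 ± 0.24 (adjusted p = 0.15) and -0.62 ± 0.21 (adjusted p = 0.0671), and neither passed with all 12 arrays; omitting the OX40L-JAG1 Teff arrays gave an adjusted p of 0.0125 for Pola2 and 0.0212 for Pold2. Pola1 rose by 0.69 ± 0.20. Prim1 changed by 0.85 ± 0.30 (adjusted p = 0.0882) and Prim2 by 0.06 ± 0.33.

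Rpa3 had the largest Teff change of the set and a Treg change close to 0. It read 9.94 and 9.88 in anti-CD3-CD28 Teff cells, against 7.32 and 7.53 in control Teff cells. Both stimulated arrays were far above both fresh ones in Teff cells, whereas the Treg groups overlapped. The rise was 2.49 ± 0.60 (adjusted p = 0.0166), with an SE that includes OX40L-JAG1 Teff arrays at 9.48 and 6.95. Rpa3 lost its call without any single one of the anti-CD3-CD28 or control Teff arrays, and its second, dimmer row changed by 1.34 in Teff cells and 0.19 in Treg cells. Lig1 read 7.52 and 7.82 in anti-CD3-CD28 Teff cells, against 6.79 and 6.39 in control Teff cells, and Fen1 6.68 and 6.89 against 5.77 and 5.68. Neither gene overlapped between the groups, and they rose by 1.08 ± 0.20 and 1.06 ± 0.26. Rpa2 changed by 0.97 ± 0.33 (adjusted p = 0.0723) and Rpa1 by -0.31 ± 0.28.

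Among nucleotide supply enzymes in Teff cells, Rrm2 read 7.84 and 7.86 in anti-CD3-CD28 Teff cells, against 6.05 and 5.98 in control Teff cells. Rrm1 read 9.22 and 9.62 against 8.44 and 8.44, and Dut 8.28 and 8.58 against 7.15 and 7.27. No arrays overlapped, and the rises were 1.83 ± 0.31 (adjusted p = 0.00207), 0.98 ± 0.21 (adjusted p = 0.00957) and 1.22 ± 0.27 (adjusted p = 0.0099). The second row of Dut, at low intensity, changed by -0.46. Tk1 rose by 1.44 ± 0.20 and Tyms by 1.13 ± 0.25. The chromatin assembly subunits parted: Chaf1a read 6.47 and 6.79 against 5.11 and 5.17, and Chaf1b 6.95 and 6.93 against 7.22 and 7.24. Chaf1a was higher and Chaf1b slightly lower on both stimulated arrays. Chaf1a rose by 1.49 ± 0.25 (adjusted p = 0.00235), and Chaf1b changed by -0.29 ± 0.23 (adjusted p = 0.48). Brca1 read 7.01 and 7.01 against 5.19 and 5.44 and rose by 1.69 ± 0.19 (adjusted p = 0.000167). Dtl read 7.24 and 7.41 against 6.61 and 6.73, Fanci 6.04 and 6.28 against 5.91 and 5.84 and Brca2 5.64 and 5.85 against 5.69 and 5.57. The Dtl and Fanci arrays did not overlap and those of Brca2 did, and the 3 changes of 0.66, 0.28 and 0.11 did not pass. Clspn rose by 1.33 ± 0.19 and Chek1 by 0.89 ± 0.25.

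Related lists were mixed in Teff cells, where 8 of 43 further replication genes rose and 5 fell (median 0.15), 5 of 20 further checkpoint and repair genes rose and 1 fell (median 0.28), and 2 of 13 E2F and pocket protein genes rose and 3 fell (median 0.10). All 9 mitosis markers rose, with a median of 1.72, and Mki67 read 9.99 and 10.14 in anti-CD3-CD28 Teff cells, against 8.47 and 8.47 in control Teff cells. Of the genes with an E2F motif 6 of 16 rose (median 0.68), and of those with a promoter and no motif 13 of 25 (median 0.97). B cell markers moved with this comparison: 6 of 7 fell, and their summed intensity was 209 to 213 in anti-CD3-CD28 Teff cells and 1204 to 1228 in control Teff cells, with Pax5 and Blnk below the lowest array median in both. T cell markers fell in 3 of 6, with a sum of 7918 to 7943 against 14681 to 15631. Myeloid markers fell in 1 of 8, CD8 and NK cell markers rose in 1 of 6, and all 3 erythroid and platelet markers rose (sum 396 to 397, against 73 to 74). Their part in the result was not tested.

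After anti-CD3-CD28, 11 of the 48 genes were higher in Treg cells than in Teff cells and 0 were lower (limma; at an unadjusted p under 0.05, 24 were higher and 2 lower), where 9.03% of all genes were higher; the median difference was 0.47 and that of all genes -0.05. The 11 were Mcm10, Ticrr, Pola2, Prim2, Pold2, Pole, Chaf1b, Chek1, Dtl, Brca2 and Fanci, so 4 of 8 polymerase and primase subunits and 4 of 6 checkpoint and repair genes were among them. After quantile normalization 1 gene was higher (Chaf1b), 2 were lower (Rpa3 and Dut), the median was 0.12, and 15 of the 48 changed sign, 4 of the 5 clamp and loader subunits among them. The count was also 0 without anti-CD3-CD28 Treg replicate 1, 1 without anti-CD3-CD28 Treg replicate B or anti-CD3-CD28 Teff replicate 1, 5 without anti-CD3-CD28 Teff replicate B, and 6 without any single OX40L-JAG1 Treg or control Teff array. Without the OX40L-JAG1 Teff arrays, which enter only the estimate of the spread, 24 genes were higher and 2 lower. T cell markers were higher in 2 of 6 and basophil and mast cell markers lower in 2 of 6, and their part was not tested. Chaf1b, at 8.33 and 8.24 in anti-CD3-CD28 Treg cells, against 6.95 and 6.93 in anti-CD3-CD28 Teff cells, differed by 1.35 ± 0.23 (adjusted p = 0.00434), and by 0.92 (adjusted p = 0.0497) after quantile normalization. Pola2 differed by 1.19 ± 0.24 (adjusted p = 0.00988), Ticrr by 1.42 ± 0.34 (adjusted p = 0.0198) and Pold2 by 1.05 ± 0.21 (adjusted p = 0.00816).

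**Figure D3:**
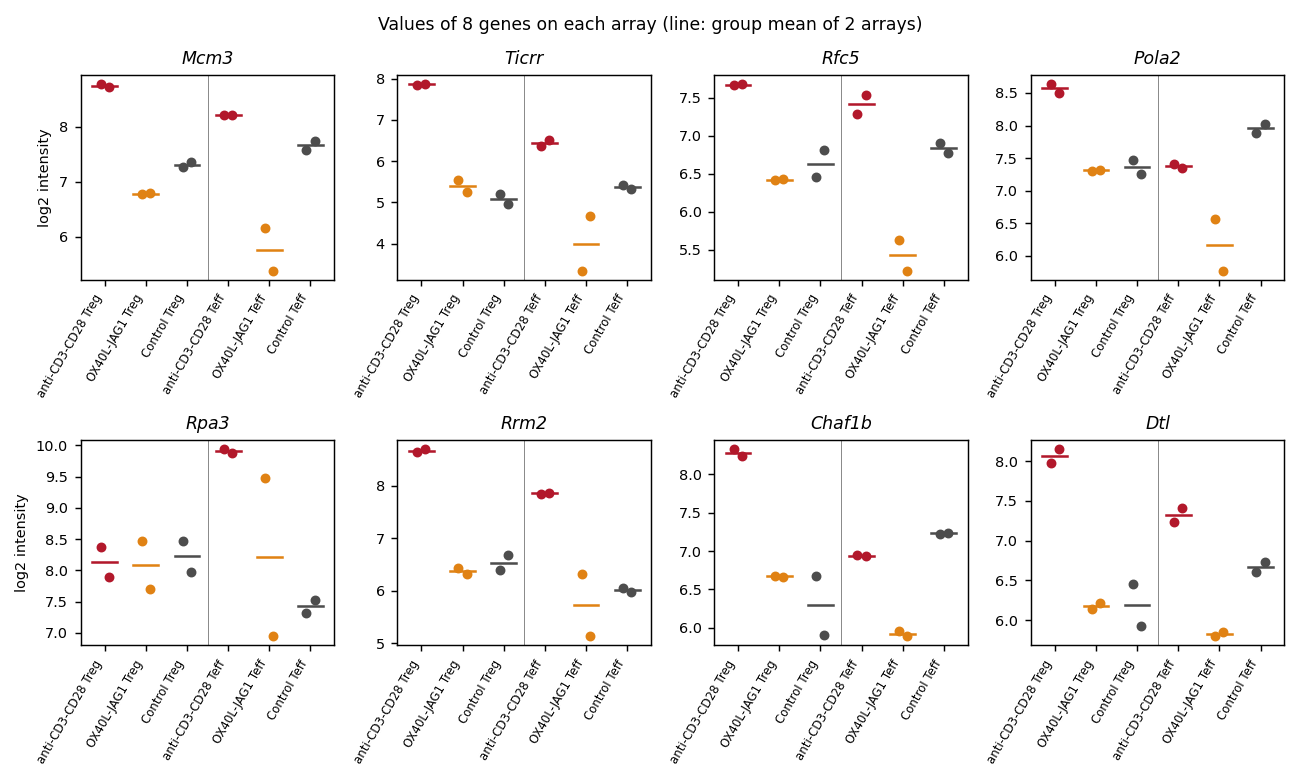
Log2 intensity of 8 genes on each of the 12 arrays, by group; points are arrays, lines the mean of the 2 arrays of a group, and each panel has its own axis. Rpa3 has its highest values in anti-CD3-CD28 Teff cells and 1 OX40L-JAG1 Teff array, while the other 7 genes have theirs in anti-CD3-CD28 Treg cells; after quantile normalization Rfc5 reverses between the anti-CD3-CD28 Treg and Teff groups.

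Between control Treg and control Teff cells 1 of the 48 genes passed: Chaf1b was lower in Treg cells, with a difference of -0.94 ± 0.23 (adjusted p = 0.0495), where 2.51% of all genes were lower. The median difference was -0.16, against 0.02 over all genes, and 11 genes were lower and 2 higher at an unadjusted p under 0.05, where 2361 of all 22180 genes were lower and 1318 higher by that p. Pold1 (-0.76 ± 0.20), Brca2 (-0.72 ± 0.27), Fanci (-0.68 ± 0.21) and Pold2 (-0.63 ± 0.21) were among the lower. The lower control Treg array of Brca2 was below 4.87, so its size is not exact. The Chaf1b call was lost after quantile normalization, where Orc6 was the 1 gene called, higher in Treg cells (0.71). Without the OX40L-JAG1 Teff arrays 4 genes were higher and 11 lower, and the count was 0 without any single other array except control Treg replicate 1. B cell markers were lower in 5 of 7, with a sum of 260 to 322 in control Treg cells and 1204 to 1228 in control Teff cells, and their part in the result was not tested.

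The response itself, anti-CD3-CD28 minus control in Treg cells less the same difference in Teff cells, was larger in Treg cells for 40 genes and larger in Teff cells for 8. The difference passed for 13 genes, all larger in Treg cells, where 10.1% of all genes passed in that direction; the median was 0.58 and that of all genes -0.08. The 13 were Mcm2, Cdt1, Mcm10, Ticrr, Pola2, Pold2, Pole, Pole2, Rrm1, Chaf1b, Dtl, Brca2 and Fanci. Chaf1b was the extreme case, with a difference of 2.29 ± 0.33 (adjusted p = 0.00193): it rose in Treg cells and was slightly lower in Teff cells. Pola2 followed at 1.78 ± 0.34 (adjusted p = 0.00784), Pole2 at 1.76 ± 0.51 (adjusted p = 0.0461), Brca2 at 1.72 ± 0.38 (adjusted p = 0.0151), Ticrr at 1.72 ± 0.48 (adjusted p = 0.0368) and Pold2 at 1.68 ± 0.29 (adjusted p = 0.00492). The Brca2 value rests in part on a control Treg array below 4.87 and is not an exact size. Rrm1 rose in both cell types and still differed, by 1.02 ± 0.30 (adjusted p = 0.0475). Among markers of cell types, T cell markers passed in the same direction in 4 of 6, B cell markers in 2 of 7 (Cd79a and Jchain) and the myeloid marker Itgam, while the myeloid marker Adgre1 passed in the opposite one, and their part in the result was not tested. In the opposite direction Rpa3 differed by -2.58 ± 0.85 (adjusted p = 0.0716), Orc6 by -0.75 ± 0.31 (adjusted p = 0.138) and Dut by -0.73 ± 0.38 (adjusted p = 0.231), none past the threshold with all 12 arrays. After quantile normalization 5 genes passed, Chaf1b (1.67) and Pold2 (1.09) larger in Treg cells and Rpa3 (-3.09), Orc6 (-1.25) and Dut (-1.26) larger in Teff cells, and 12 of the 48 changed sign. Without the OX40L-JAG1 Teff arrays 22 genes were larger in Treg cells and 3 in Teff cells, and leaving out any single other array except anti-CD3-CD28 Teff replicate B gave 3 to 8 genes.

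**Figure D4:**
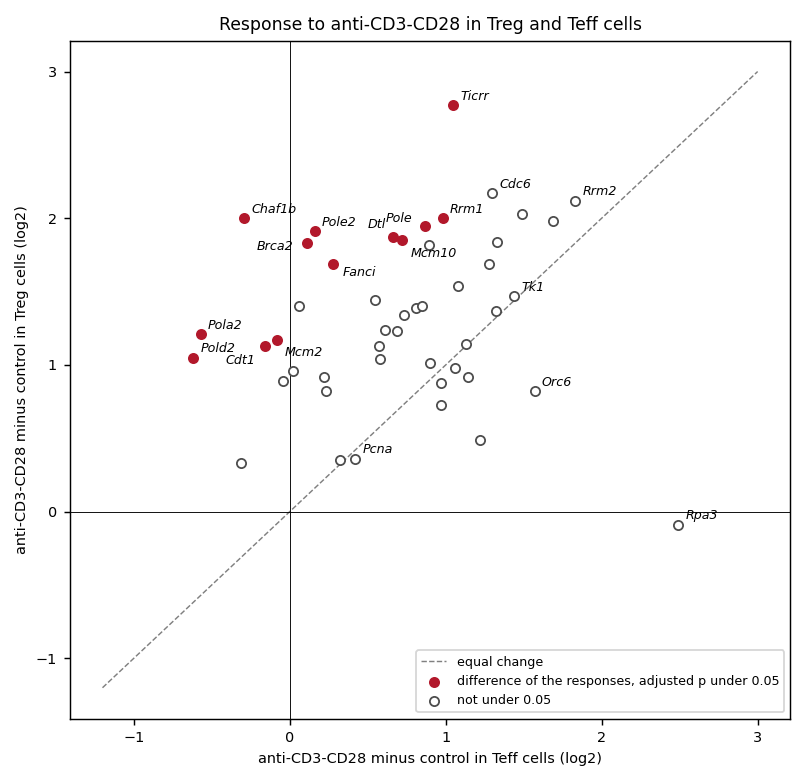
Log2 change with anti-CD3-CD28 in Treg cells (vertical) against that in Teff cells (horizontal), each against its own fresh control, for the 48 genes; the dashed line marks equal change and filled points an adjusted p under 0.05 for the difference. Chaf1b, Pola2 and Pold2 lie left of 0 and high above the line, and Rpa3 lies alone at the lower right; after quantile normalization 2 of the 13 filled points pass.

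With OX40L-JAG1 no gene of the set passed the test in Treg cells. Against control Treg cells 0 of the 48 genes passed in either direction (limma; at an unadjusted p under 0.05, 2 were higher and 3 lower), where 0.996% of all genes rose and 0.559% fell. The changes ran from -0.60 to 0.52, with a median of -0.11, and that of all genes was -0.01. The 2 higher genes at an unadjusted p were Orc1 (from control arrays below 4.87) and Tk1 (0.52 ± 0.20), and the 3 lower ones Mcm3 (-0.52 ± 0.23), Gins2 (-0.48 ± 0.19) and Lig1 (-0.47 ± 0.20), with adjusted p from 0.361 to 0.482. Pcna, at 9.78 and 9.78 in OX40L-JAG1 Treg cells and 10.36 and 10.30 in control Treg cells, was lower on both arrays with a change of -0.55 ± 0.29 (adjusted p = 0.62), and it was the 1 gene that fell once either or both OX40L-JAG1 Teff arrays were left out (adjusted p = 0.0487). A p that misses the threshold does not show that the levels were equal, and the median SE of a change was 0.23.

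In OX40L-JAG1 Treg cells Mcm3 read 6.77 and 6.80, Mcm5 6.97 and 7.32, Mcm6 8.5 and 8.44 and Mcm4 8.37 and 8.36. Mcm3, Mcm5 and Mcm6 lay below both fresh arrays and Mcm4 overlapped them, where of all 22180 genes 5001 lay below and 5138 above both fresh arrays. Ticrr read 5.54 and 5.24 and Cdc6 5.50 and 5.36, with Gins3 at 6.75 and 6.94 and Gins4 at 8.32 and 8.04. Ticrr and Gins3 were on average slightly higher than in fresh cells and Cdc6 and Gins4 slightly lower. Rfc5 read 6.41 and 6.43 and Rfc1 7.27 and 7.36, Pole 5.72 and 5.93 and Pole2 6.66 and 6.59, Pold1 6.43 and 6.48, Pold2 6.69 and 6.69 and Pola2 7.30 and 7.32. Rfc1 was above both fresh arrays, Rfc5 and Pold1 were below them, and the other 4 overlapped. Polymerase changes lay between -0.55 (Prim2) and 0.29 (Pole2). Lig1 read 6.27 and 6.33, Fen1 5.70 and 5.27 and Rpa3 8.47 and 7.70, and Rrm2 6.44 and 6.32, Rrm1 8.09 and 8.28 and Dut 7.15 and 6.83. Lig1 and Dut were below both of their fresh arrays, and the other 4 overlapped. Chaf1a read 5.10 and 5.40, Chaf1b 6.68 and 6.66, Brca1 5.51 and 5.50, Dtl 6.14 and 6.22, Fanci 4.72 and 5.13 and Brca2 4.85 and 5.01. Fanci was lower on both arrays, and the other 5 overlapped.

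Mitosis markers gave other values in the same arrays. Their changes in OX40L-JAG1 Treg cells were positive for all 9, with a median of 0.63, and 0 of 9 passed (limma, with 7 higher at an unadjusted p under 0.05). Mki67, the proliferation marker, read 9.41 and 9.46 in OX40L-JAG1 Treg cells, against 8.86 and 8.75 in control Treg cells, a change of 0.63 ± 0.39 (adjusted p = 0.715). Bub1 changed by 0.98 ± 0.31, Kif11 by 0.88 ± 0.28 and Plk1 by 0.58 ± 0.19. Of the further lists, 1 of 43 replication genes rose, and 0 of 20 checkpoint and repair genes and 0 of 13 E2F and pocket protein genes passed (limma, with 1 higher in each at an unadjusted p under 0.05), with E2f2 at 0.73 ± 0.34. No test compared mitosis markers with replication genes. Myeloid markers rose in 4 of 8, basophil and mast cell markers in 3 of 6 and erythroid and platelet markers in 2 of 3, while 1 of 6 CD8 and NK cell markers fell.

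Measured against OX40L-JAG1 instead of the fresh cells, anti-CD3-CD28 Treg cells were higher for 38 of the 48 genes and lower for 0, where 4.73% of all genes were higher. The median difference was 1.47, and that of all genes -0.02. After quantile normalization 26 of the 48 were higher and 0 lower, with 2 of 8 polymerase and primase subunits and 1 of 5 clamp and loader subunits among them. This comparison shares its anti-CD3-CD28 arrays with the one against fresh cells. Cdc6 differed by 2.30 ± 0.20 (adjusted p = 6.61e-05), Ticrr by 2.46 ± 0.34 (adjusted p = 0.00109), Rrm2 by 2.28 ± 0.31 (adjusted p = 0.000979), Lig1 by 2.01 ± 0.20 (adjusted p = 0.000163), Mcm5 by 1.99 ± 0.30 (adjusted p = 0.00199) and Mcm3 by 1.97 ± 0.23 (adjusted p = 0.000438). All 8 polymerase and primase subunits, both chromatin assembly subunits and all 6 checkpoint and repair genes were among the 38. Those that did not pass were Mcm7, Gins3, Gins4, Pcna, Rfc1, Rfc2, Rpa1, Rpa2, Rpa3 and Dut, of which Rpa1 and Rpa3 changed sign after quantile normalization. Of these, Mcm7, Gins3, Pcna, Rfc1, Rfc2, Rpa2 and Dut passed as higher once the OX40L-JAG1 Teff arrays were left out. Those arrays enter only the estimate of the spread here. Pcna differed by 0.91 ± 0.29 (adjusted p = 0.115). Myeloid markers were lower in 5 of 8 (sum 449 to 501 in anti-CD3-CD28 Treg cells and 1763 to 2080 in OX40L-JAG1 Treg cells) and basophil and mast cell markers in 3 of 6 (90 to 94 against 663 to 816), with erythroid and platelet sums of 181 to 184 against 417 to 510, and their part in the result was not tested. The count was 25 without anti-CD3-CD28 Treg replicate B or OX40L-JAG1 Treg replicate B.

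OX40L-JAG1 Teff cells had the lowest mean of the 6 groups for 39 of the 48 genes. That rank was not counted over all genes, and the values of these arrays spread less. Of the 48 genes 29 fell and 0 rose against control Teff cells, but 26.9% of all genes fell in this comparison; the median change was -0.83, and that of all genes 0.18. All 6 helicase subunits and all 8 polymerase and primase subunits fell, as did 5 of 11 origin factors, 3 of 5 clamp and loader subunits, 2 of 5 single-stranded DNA and Okazaki fragment factors, 1 of 5 nucleotide supply enzymes, 1 of 2 chromatin assembly subunits and 3 of 6 checkpoint and repair genes. After quantile normalization, which took the median of all genes to 0, 17 genes fell and 4 rose (Orc6, Rpa3, Tk1 and Dut). Of the 48 genes 8 changed sign. They were Mcm6 (to 0.13) and Pold1 (to 0.15), which had fallen, and Orc1, Gins1, Gins2, Gins4, Rfc2 and Dut, which had not passed. The group is the one described above whose arrays spread less, correlated less and held more myeloid and basophil and less T cell marker signal: T cell markers fell in 5 of 6, and myeloid markers rose in 6 of 8 and basophil and mast cell markers in 4 of 6, with Cd14 below the lowest array median. With array weights, which gave these arrays 0.169, 17 genes fell, and with only the 4 arrays compared, 10.

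By gene, Mcm3 read 6.15 and 5.38 in OX40L-JAG1 Teff cells, against 7.58 and 7.75 in control Teff cells, and Mcm4 6.97 and 6.45 against 8.49 and 8.31. Mcm5 read 7.02 and 5.91 against 8.02 and 7.86. Replicate B was the lower one in each, and both replicates lay below both fresh arrays, as did those of 7303 of all 22180 genes. The changes were -1.90 ± 0.23 (adjusted p = 0.000129), -1.69 ± 0.21 (adjusted p = 0.000124) and -1.47 ± 0.30 (adjusted p = 0.00259). Mcm6 read 8.32 and 7.27 against 8.66 and 8.80 and changed by -0.94 ± 0.28 (adjusted p = 0.02). Mcm2 changed by -1.52 ± 0.21 and Mcm7 by -1.10 ± 0.40, both past the threshold. Ticrr read 3.34 and 4.66 against 5.43 and 5.33, Cdc6 5.35 and 5.39 against 6.06 and 6.15 and Gins3 5.99 and 5.49 against 6.98 and 7.07. These 3 were lower on both arrays, with changes of -0.73 ± 0.20 (adjusted p = 0.0117) for Cdc6 and -1.29 ± 0.22 (adjusted p = 0.000957) for Gins3. Ticrr passed too (adjusted p = 0.00689), but both of its OX40L-JAG1 Teff arrays were below 4.87, so its differences from that group are not exact sizes. Gins4 read 7.78 and 6.36 against 7.75 and 7.70, overlapped, and changed by -0.66 ± 0.35 (adjusted p = 0.14). Cdt1 (-1.17 ± 0.27) and Mcm10 (-0.48 ± 0.18) fell too, while Orc6, Cdc45 and Gins2 did not pass, at 0.11, -0.47 and -0.14, nor did Orc1 and Gins1, whose control arrays were below 4.87.

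In the clamp group Pcna read 9.68 and 8.56 in OX40L-JAG1 Teff cells, against 10.13 and 9.98 in control Teff cells, Rfc5 5.63 and 5.22 against 6.90 and 6.77 and Rfc1 6.74 and 6.16 against 7.50 and 7.57. Neither replicate overlapped the fresh arrays, and the changes were -0.93 ± 0.29 (adjusted p = 0.0231), -1.41 ± 0.21 (adjusted p = 0.000378) and -1.09 ± 0.23 (adjusted p = 0.00309). Rfc2 and Rfc3 did not pass (-0.56 and -0.30). Pole read 4.96 and 4.45 against 6.03 and 6.09, Pole2 5.93 and 4.65 against 7.03 and 7.19, and Pola2 6.57 and 5.77 against 7.89 and 8.02. Pold1 read 6.38 and 6.71 against 7.35 and 7.33, and Pold2 5.67 and 5.47 against 7.22 and 7.21. All 5 were lower on both arrays, Pold1 by the least. The Pole mean of 4.70 and the lower Pole2 array were below 4.87, so the differences of these genes from that group are not exact sizes. The changes were -1.35 ± 0.22 (adjusted p = 0.000691), -1.81 ± 0.36 (adjusted p = 0.00233), -1.78 ± 0.24 (adjusted p = 0.000226), -0.79 ± 0.20 (adjusted p = 0.00861) and -1.65 ± 0.21 (adjusted p = 0.00014), with Pola1 at -0.97, Prim1 at -1.01 and Prim2 at -1.81.

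Among the remaining roles, Lig1 read 5.70 and 5.89 in OX40L-JAG1 Teff cells, against 6.79 and 6.39 in control Teff cells, and Fen1 5.43 and 4.69 against 5.77 and 5.68. Both were lower on both arrays; Lig1 passed at -0.79 ± 0.20 (adjusted p = 0.00915) and Fen1 did not at -0.67 ± 0.26 (adjusted p = 0.0508). Rpa3 showed the widest disagreement, with 1 replicate above and 1 below its fresh arrays, and changed by 0.79 ± 0.60 (adjusted p = 0.288). Rpa1 fell (-1.28 ± 0.28), and Rpa2 did not pass (-0.69 ± 0.33). After quantile normalization the Rpa1 change was -0.22 (limma adjusted p = 0.413). The second, dimmer row of Rpa1 went the other way, with a mean of 5.54 in OX40L-JAG1 Teff cells and 4.29 in control Teff cells, the latter below 4.87. Rrm1 read 7.02 and 6.62 against 8.44 and 8.44, Rrm2 6.31 and 5.14 against 6.05 and 5.98 and Dut 7.53 and 6.66 against 7.15 and 7.27. Rrm1 was below its fresh arrays on both replicates, while Rrm2 and Dut overlapped theirs. Rrm1 changed by -1.62 ± 0.21 (adjusted p = 0.000184), against -0.29 for Rrm2, -0.11 for Dut, -0.66 for Tyms and 0.00 for Tk1. Chaf1b read 5.95 and 5.89 against 7.22 and 7.24 and Chaf1a 5.21 and 4.93 against 5.11 and 5.17. Chaf1b was clear of its fresh arrays and changed by -1.31 ± 0.23 (adjusted p = 0.00113), and Chaf1a overlapped and changed by -0.07. Brca1 read 5.10 and 5.34 against 5.19 and 5.44, Dtl 5.80 and 5.85 against 6.61 and 6.73, Fanci 5.13 and 4.76 against 5.91 and 5.84 and Brca2 5.27 and 4.35 against 5.69 and 5.57. Dtl, Fanci and Brca2 were lower on both arrays and fell (-0.84, -0.93 and -0.82), while Brca1, Chek1 and Clspn did not pass (-0.10, -0.36 and -0.39). The Brca2 mean of 4.81 in OX40L-JAG1 Teff cells and the lower Fanci array were below 4.87, so their sizes are not exact. Further replication genes fell in 30 of 43 (median -1), checkpoint and repair genes in 12 of 20 with 1 higher, E2F and pocket protein genes in 9 of 13, and mitosis markers in 5 of 9.

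Anti-CD3-CD28 Teff cells exceeded OX40L-JAG1 Teff cells for 46 of the 48 genes, where 18.9% of all genes were higher, with a median of 1.53 against -0.05; Gins4 and Rpa3 did not pass, 37 of 48 were higher after quantile normalization, and 10 with only the 4 arrays compared. OX40L-JAG1 Treg cells exceeded OX40L-JAG1 Teff cells for 20 genes, where 24.6% of all genes were higher. The median was 0.66, and that of all genes -0.14. T cell markers were higher in 4 of 6 in the same comparison, and myeloid markers lower in 4 of 8. Mcm4 differed by 1.65 ± 0.21 (adjusted p = 0.000222), Rrm1 by 1.37 ± 0.21 (adjusted p = 0.000717) and Pole2 by 1.33 ± 0.36 (adjusted p = 0.0143). After quantile normalization 8 were higher and 2 lower (Orc6 and Dut), and Mcm2 and Rpa1 changed sign among the 20; the count was 31 without OX40L-JAG1 Teff replicate 1, 11 without OX40L-JAG1 Treg replicate 1 and 10 without its replicate B. The change with OX40L-JAG1 in Treg cells less that in Teff cells was positive and passed for 16 genes. Of all genes 21.3% passed in that direction, and the median was 0.64 against -0.17. All of the 16 fell in Teff cells and none passed in Treg cells (Mcm3: -1.9 in Teff and -0.52 in Treg cells). The difference is therefore not a stronger response in Treg cells. Pole2 differed by 2.10 ± 0.51 (adjusted p = 0.0109), Mcm4 by 1.76 ± 0.29 (adjusted p = 0.00149), Pold2 by 1.75 ± 0.29 (adjusted p = 0.00149) and Gins3 by 1.55 ± 0.31 (adjusted p = 0.00421), and Rfc1 by 1.43 ± 0.32 (adjusted p = 0.00736). T cell markers passed in the same direction in 4 of 6 and B cell markers in 2 of 7 (Cd79a and Jchain), and myeloid markers in the opposite one in 2 of 8 (S100a9 and Adgre1), and their part in the result was not tested. After quantile normalization the difference passed as positive for 3 genes and as negative for 2.

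Across the 6 groups the levels of the set ran from anti-CD3-CD28 Treg cells at the top to OX40L-JAG1 Teff cells at the bottom. The median of the 48 group means was 7.93 in anti-CD3-CD28 Treg cells, 7.405 in anti-CD3-CD28 Teff cells, 6.94 in control Teff cells, 6.70 in control Treg cells, 6.68 in OX40L-JAG1 Treg cells and 5.82 in OX40L-JAG1 Teff cells. Between neighbours in this order, the test passed for 11 genes (anti-CD3-CD28 Treg and Teff), 22 genes (anti-CD3-CD28 and control Teff), 1 gene (control Treg and control Teff), 0 genes (OX40L-JAG1 and control Treg) and 20 genes (OX40L-JAG1 Treg and Teff). The highest mean was in anti-CD3-CD28 Treg cells for 42 genes, in anti-CD3-CD28 Teff cells for 5 and in control Teff cells for 1, and the lowest in OX40L-JAG1 Teff cells for 39, all on the deposited values. These ranks were not counted over all genes, so they do not show an order particular to the set. The Treg and Teff order after anti-CD3-CD28 turned round for 15 genes under quantile normalization. The 6 genes with another highest group were Orc6, Rpa2, Rpa3, Fen1, Dut and, in control Teff cells, Rpa1. Genes with 2 rows were Rpa1, Rrm2, Fen1, Dut, Pole and Rpa3; the second, dimmer row changed with anti-CD3-CD28 in Treg cells by -0.34, 0.78, 0.31, 0.23, 0.40 and 0.19 in that order.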

How the data were processed

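The values are log2 intensities that the authors deposited after RMA, per the submitters' processing notes; RMA corrects background, normalizes by quantiles and summarises probes, and its settings are not given in the sources used here. Affymetrix Mouse Gene 2.0 ST arrays were used. Of 41345 rows, 23521 carry exactly 1 symbol; the row with the highest mean stood for a gene, leaving 22180. A limma 3.58.1 model (R 4.3.3) over all 12 arrays with 6 group means gave moderated tests, Benjamini-Hochberg adjusted over all genes at 0.05, and was tested on simulated data. In each group 1 array is labelled B, and the one with no suffix is called replicate 1 here. The labels do not say whether arrays of different groups were made as matched sets, and samples were not paired. The 15 correlations of replicate differences between groups lay between -0.0693 and 0.182, which shows no strong shared shift but cannot settle pairing. Alternatives were the replicate block, quantile normalization, array weights, omitted arrays, dim genes left out, mean rows, robust shrinkage and only the arrays compared. Every gene of the set is named; array values are given for the largest and smallest changes of each role and for Treg and Teff differences, and for other lists up to 5 of the largest. Members and lists (further replication, checkpoint, E2F, mitosis and cell type markers) were chosen with earlier results of these data known.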

Additional observations from a re-analysis of the deposited data

Results flagged for a closer look

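The difference between the Treg and Teff responses passed the test for 13 genes with anti-CD3-CD28 and 16 with OX40L-JAG1. With anti-CD3-CD28 the log2 response was larger in Treg cells than in Teff cells by 2.29 for Chaf1b, 1.78 for Pola2, 1.76 for Pole2, 1.72 for Ticrr, 1.72 for Brca2, 1.68 for Pold2, 1.41 for Fanci, 1.30 for Cdt1, 1.25 for Mcm2, 1.22 for Dtl, 1.12 for Mcm10, 1.09 for Pole and 1.02 for Rrm1. With OX40L-JAG1 the Treg change less the Teff change was 2.10 for Pole2, 1.76 for Mcm4, 1.75 for Pold2, 1.73 for Pola2 and 1.73 for Rrm1. It was 1.70 for Chaf1b, 1.69 for Ticrr, 1.55 for Gins3, 1.43 for Rfc1, 1.42 for Rpa1 and 1.37 for Mcm3. The remaining values were 1.32 for Pole, 1.19 for Rfc5, 1.16 for Mcm2, 1.09 for Cdt1 and 0.84 for Dtl. All of these genes fell in Teff cells with OX40L-JAG1 and none passed in Treg cells. The Ticrr and Pole values with OX40L-JAG1 rest on Teff means below 4.87, and the Pole2 value rests in part on an array below it, so none is an exact size. Nor is the Brca2 value with anti-CD3-CD28, which rests in part on a control Treg array below 4.87. After quantile normalization 2 genes were larger in Treg cells (Chaf1b and Pold2, both among the 13) and 3 in Teff cells with anti-CD3-CD28. With OX40L-JAG1 the difference was then positive for 3 genes and negative for 2.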

How the results depend on the processing

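The count of genes past the threshold moved by more than 1.5 times under some alternatives. Quantile normalization gave 21 (40 as reported) for anti-CD3-CD28 against control Treg cells, 3 (11) for anti-CD3-CD28 Treg against Teff cells, 10 (20) for OX40L-JAG1 Treg against Teff cells, 5 (13) for the difference of anti-CD3-CD28 responses and 5 (16) for that of OX40L-JAG1 responses. It moved the all-gene median to 0 from 0.18 in OX40L-JAG1 against control Teff cells, to -0.01 from -0.14 in OX40L-JAG1 Treg against Teff cells and to 0 from -0.17 in the OX40L-JAG1 response difference. It reversed Mcm6 (0.13), Pold1 (0.15) and Dut (0.88) in OX40L-JAG1 against control Teff cells, and Mcm2 (-0.28), Orc6 (-0.84) and Rpa1 (-0.14) in OX40L-JAG1 Treg against Teff cells. Rpa3 had differences of -1.4 to 1.13 there as each OX40L-JAG1 Teff array was left out. The cause of these shifts was not tested. Array weights gave 34 for anti-CD3-CD28 against control Teff cells, 17 for OX40L-JAG1 against control Teff cells, 29 for anti-CD3-CD28 against OX40L-JAG1 Teff cells, 25 for anti-CD3-CD28 Treg against Teff cells, 5 for OX40L-JAG1 Treg against Teff cells, 16 for control Treg against control Teff cells and 25 for the anti-CD3-CD28 response difference. Without both OX40L-JAG1 Teff arrays these were 35 (anti-CD3-CD28 against control Teff), 1 (OX40L-JAG1 against control Treg), 26 (anti-CD3-CD28 Treg against Teff), 15 (control Treg against control Teff) and 25 (response difference). With only the 4 arrays compared the counts were 10 for OX40L-JAG1 against control Teff cells, 10 for anti-CD3-CD28 against OX40L-JAG1 Teff cells, 24 for anti-CD3-CD28 Treg against Teff cells, 1 for OX40L-JAG1 Treg against Teff cells and 11 for control Treg against control Teff cells. The replicate block gave 0 for control Treg against control Teff cells and kept the other counts within 1.5 times, as did trend and robust shrinkage and the mean of all rows for every count, and leaving out dim genes gave 2 for control Treg against control Teff cells. Leaving out each array in turn gave 22 to 43 and 10 to 35 for anti-CD3-CD28 against control in Treg and Teff cells, 0 to 1 and 20 to 36 for OX40L-JAG1 against control in Treg and Teff cells, 25 to 45 and 35 to 48 for anti-CD3-CD28 against OX40L-JAG1 in Treg and Teff cells, 0 to 26, 10 to 31 and 0 to 15 for Treg against Teff cells with anti-CD3-CD28, OX40L-JAG1 and in controls, and 3 to 25 and 10 to 33 for the response differences to anti-CD3-CD28 and OX40L-JAG1. With 2 arrays a group, signal near background and the spread of the OX40L-JAG1 Teff arrays limit what these tests can show.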
